A study of Mus musculus and Mus musculus x Mus spretus with 14 samples.

Results

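The 109 rows described here are the passenger strands, or star strands, among the mouse microRNAs of a microRNA array study of 13 mouse skin cell lines. They are the rows whose name holds a mouse entry that ends in an asterisk, except for a few names that are not analysed here. They were picked by name alone, out of 1271 rows of which 576 name a mouse microRNA, and they are set against the 461 mouse rows without a star, called plain rows below. Each value is a log2 signal from a 1-colour microRNA array of total RNA labelled with Cy3 by an Exiqon kit, with 1 array per line and 2 arrays, averaged here, for the line A5. The lines follow the steps of mouse skin carcinogenesis, and the design sets 5 malignant spindle lines, 3 malignant squamous lines and 5 non-malignant squamous lines against each other.

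The malignant spindle lines were A5 and D3, CARB and CARC, and H11. The malignant squamous lines were B9, E4 and PDVC57, and the non-malignant squamous lines comprised 3 of immortalised keratinocytes (C5N, C50, NK) and 2 of papilloma origin (MSCP1, P6). A5, D3 and B9 are clonally related lines from 1 tumour of a hybrid of M. spretus and CBA treated with the carcinogen DMBA, so they cross the spindle and squamous groups. E4 and H11 do so too, since both are single-cell clones of 1 line from a lymph-node metastasis in a 129/NIH hybrid. CARB and CARC came from spindle carcinomas of NIH/Swiss mice treated with DMBA and the tumour promoter TPA, and PDVC57 from a tumour that DMBA-transformed keratinocytes of C57BI mice (C57B1 in the same label) formed in C57BI mice. C5N is a clone of MCA3D keratinocytes from BALB/c, NK came from a p53 null mouse, and MSCP1 and P6 came from papillomas of M. spretus and CBA crosses treated with DMBA and TPA. All were grown in the same serum-containing medium. Each line is 1 culture, so the spread within a group is the spread between lines of different origin.

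A microRNA hairpin is cut into a short duplex, of which 1 strand, the guide, is usually kept by an Argonaute protein and the other, the passenger or star strand, is usually degraded. The star names mark the strand thought to be the rarer when the names were given, and some have since proved to be abundant or to act on targets of their own. Both strands come from the same precursor, but how much of each remains also depends on strand choice and stability, and their seeds, the bases that pair with targets, differ.

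The mature star sequences are shown for the rows that were above the controls in at least 10 lines, and for those whose levels matter most below. They are RefSeq's, on the GRCm38.p6 build, written 5′ to 3′ with the seed (bases 2 to 8) in capitals.
miR-503*: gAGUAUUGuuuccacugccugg
miR-433*: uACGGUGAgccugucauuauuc
miR-138*: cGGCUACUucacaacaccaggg
miR-872*: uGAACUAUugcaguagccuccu
miR-24-1*: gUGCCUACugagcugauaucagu
miR-24-2*: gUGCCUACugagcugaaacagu
miR-21*: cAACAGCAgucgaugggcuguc
miR-30c-2*: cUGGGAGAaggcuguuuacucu
miR-31*: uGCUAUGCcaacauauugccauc
miR-382*: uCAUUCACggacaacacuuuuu
miR-300*: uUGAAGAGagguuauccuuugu
miR-140*: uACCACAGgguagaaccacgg
miR-183*: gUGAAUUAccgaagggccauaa
miR-200a*: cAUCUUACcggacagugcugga
miR-200b*: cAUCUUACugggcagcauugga
let-7g*: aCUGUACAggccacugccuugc

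Among these, miR-24-1* and miR-24-2* share the seed UGCCUAC and miR-200a* and miR-200b* the seed AUCUUAC. The star of miR-503 lies on the X chromosome at chrX:53053987-53054008 on the minus strand. The star of miR-433 at chr12:109591729-109591750, that of miR-300 at chr12:109724318-109724339 and that of miR-382 at chr12:109733819-109733840 are all on the plus strand within the imprinted Dlk1-Dio3 region, a large microRNA cluster that is active mainly in embryo, placenta and brain. The star of miR-140 is at chr8:107551288-107551308 on the plus strand and that of let-7g at chr9:106178902-106178923 on the plus strand. A mature sequence was matched to 93 of the 109 star rows. miR-19a* is named below without a sequence.

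Before the star rows are described, 3 arrays need to be set apart. The line C5N correlated with the other lines at a median r of 0.36 over all 1271 rows, against 0.76 to 0.93 for each of the remaining lines. MSCP1 had the narrowest spread of mouse rows (SD 0.55 log2 units, against 1.05 to 1.42 elsewhere), and A5 had a negative control row at 11.34. The 2 A5 arrays differed by a median of 0.106 log2 units over star rows and by at most 0.457. Of 6 microRNAs typical of epithelium, including miR-205 and the miR-200 family, none was above the controls in a spindle line. miR-205 was above in 2 malignant squamous and all 5 non-malignant lines, miR-200c in 1 and 3, and miR-203 in 0 and 2. miR-200a, miR-200b and miR-141 were in all 3 malignant squamous lines and in 4, 3 and 4 non-malignant lines. The mesenchymal miR-143 and miR-145 were each in 3 spindle lines and miR-199a-5p in 2, and in no squamous line. Mesenchymal miR-214 was in 5 spindle, 3 malignant squamous and 4 non-malignant lines. The blood markers miR-223, miR-451 and miR-144, the endothelial miR-126-3p and the muscle markers miR-133a and miR-206 were above the controls in no line. Muscle miR-1 was in 8 lines, blood miR-142-3p in 3 and neural miR-9 in 3, while neural miR-124 was in none. Each array measured a whole culture, so fewer cells carrying a microRNA and less of it per cell cannot be told apart.

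A row was counted as above the controls in a line when it lay more than 1 log2 unit above that array's median of 8 negative control rows, which was 6.50 to 6.67. By this count 54 of the 109 star rows (49.5%) were above the controls in at least 1 line and 55 in none. Of the 461 plain rows, 263 were above in at least 1 line. There were 27 star rows (24.8%) above in at least 3 lines, against 157 plain rows (34.1%). Above in at least 10 lines were 9 star rows and 89 plain rows, and miR-503* alone among the star rows was above in all 13. The heat map of star rows shows how the 27 were spread over the lines.

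**Figure D1:**
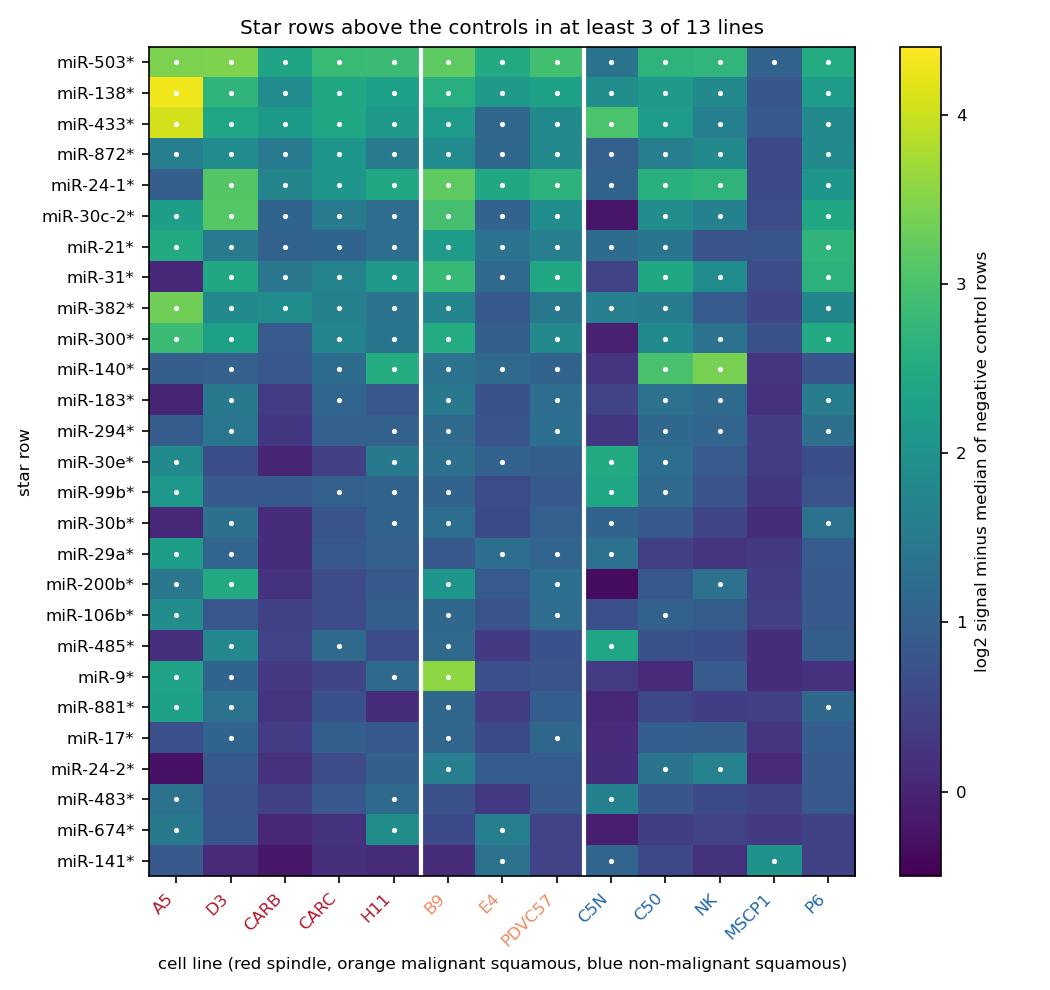
Log2 signal above the array's median of negative control rows (colour) for the 27 star rows above the controls in at least 3 lines (rows of the map) in 13 lines (columns, spindle left, malignant squamous in the middle, non-malignant squamous right), with a white dot where the row is more than 1 log2 unit above. miR-503* has a dot in all 13 lines, and the column of MSCP1 holds 2 dots.

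Per line, the star rows above the controls numbered 20 in A5, 21 in D3, 13 in CARB, 14 in CARC and 20 in H11 among the spindle lines. They numbered 24 in B9, 20 in E4 and 17 in PDVC57 among the malignant squamous lines, and 27 in C5N, 17 in C50, 13 in NK, 2 in MSCP1 and 14 in P6 among the non-malignant lines. The non-malignant group thus held both the highest and the lowest line, and the 3 groups overlapped. Spindle lines averaged 17.6 ± 3.78 rows (SD, n = 5), malignant squamous lines 20.3 ± 3.51 (n = 3) and non-malignant lines 14.6 ± 8.96 (n = 5). By an exact two-sided permutation test over lines, the spindle lines did not differ beyond the spread from the non-malignant lines (difference 3, p = 0.563, smallest p possible 0.00794) or from the malignant squamous lines (difference -2.73, p = 0.375). The malignant squamous lines and the non-malignant lines differed by 5.73 rows (exact permutation p = 0.393, smallest p possible 0.0179 in both comparisons with 3 lines). Each of the 3 p-values was 0.563 after Benjamini-Hochberg adjustment. Without MSCP1, the first difference turned to -0.15.

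Star rows were above the controls less often than plain rows on the same arrays. The share was 15.7% ± 5.72 of star rows and 25.7% ± 6.61 of plain rows (SD, n = 13 lines), a difference of -10.0 percentage points, with star rows lower in 12 of 13 lines (exact two-sided sign-flip permutation test, p = 0.000488, smallest p possible 0.000244). The same rows were scored on every array, and some of the lines share a tumour of origin, which the test does not take into account. Its p-value concerns the repeat of the difference across lines, not the spread among star rows. The difference was -27.4 points when the plain rows were limited to those that have a star row. C5N was the exception, with 24.8% of star rows against 21.5% of plain rows. The plot of shares by line shows this difference, which was -12.2 points without C5N, MSCP1 and A5.

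**Figure D2:**
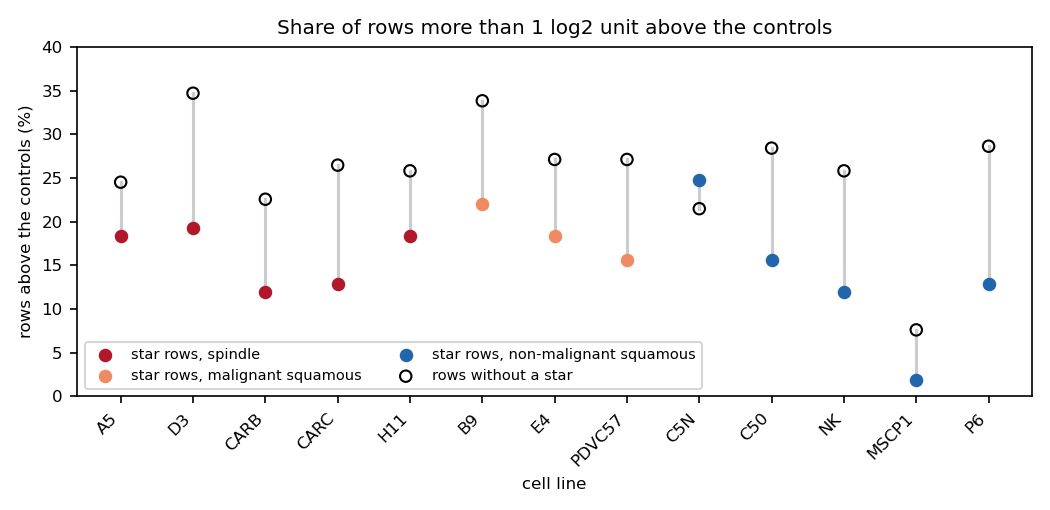
Percent of star rows (filled, coloured by group) and of plain rows (open) above the controls in each of 13 lines. The filled point lies below the open one in 12 lines, and C5N is the exception.

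The most widely detected star rows were led by miR-503*, the partner of a miR-16 family member that acts on cell cycle regulators. It had 10.10 in A5, 10.04 in D3, 9.02 in CARB, 9.36 in CARC and 9.49 in H11, against 9.76, 9.01 and 9.53 in B9, E4 and PDVC57, and 8.02, 9.32, 9.39, 7.69 and 9.10 in C5N, C50, NK, MSCP1 and P6. Its lowest line was MSCP1 and the groups overlapped. miR-24-1*, from a cluster with miR-23 and miR-27, was above in 11 lines, all but A5 and MSCP1, and ran from 7.21 in MSCP1 to 9.76 in B9. miR-30c-2*, of the miR-30 family, was also above in 11 lines, and its lowest level, 6.42, was in C5N.

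Both strands of miR-21, a microRNA raised in many carcinomas, were widely present. miR-21* had 9.15, 8.13, 7.68, 7.64 and 7.92 in A5, D3, CARB, CARC and H11, against 8.76, 7.86 and 8.23 in B9, E4 and PDVC57, and 7.87, 8.03, 7.45, 7.44 and 9.28 in C5N, C50, NK, MSCP1 and P6. The papilloma line P6 and the spindle line A5 were the highest, and NK and MSCP1 were not above the controls. miR-31*, whose guide strand is known in squamous carcinoma, was above in 10 lines and reached 9.35 in B9, but lay at 6.72 in A5, 7.15 in C5N and 7.25 in MSCP1, the same 3 lines whose arrays stand apart. miR-872* was above in 12 lines within a narrow range, 7.63 in E4 to 8.63 in CARC among them.

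miR-433*, miR-138* and miR-382* made up the rest of the widely detected rows. miR-433* had 10.73, 8.97, 8.84, 8.99 and 8.78 in A5, D3, CARB, CARC and H11, against 8.77, 7.62 and 8.45 in B9, E4 and PDVC57, and 9.64, 8.83, 8.27, 7.49 and 8.38 in C5N, C50, NK, MSCP1 and P6. miR-138* reached 10.97 in A5 and miR-382* 10.00, the highest line of each, and both were lowest in MSCP1, at 7.44 and 7.16. The plain row of miR-433 and that of miR-382 were above the controls in no line, and that of miR-138 in 1, D3. A negative control row moved with all 3 stars. That row, the brightest of the 8, stood at 11.34 in A5, 7.74 in MSCP1 and 8.45 to 9.28 in the other lines. Across the 13 lines it had an r of 0.93 with miR-382*, 0.92 with miR-433* and 0.91 with miR-138*, and these were the 3 mouse rows of 576 with an r of at least 0.9, where the median mouse row had 0.15. Without A5 the r was 0.81, 0.85 and 0.72, and in the 10 lines without C5N, MSCP1 and A5 it was 0.67, 0.79 and 0.19. The 3 stars no longer led the mouse rows there. Without A5, miR-551b had 0.851, above miR-433* at 0.845. In the 10 lines, miR-493 had 0.81 and miR-212 had 0.80, both above all 3 stars. This comparison and its level of 0.9 were chosen after the values had been seen, and both values of each point come from the same array. The part of the control's signal in the 3 star rows was not tested.

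**Figure D3:**
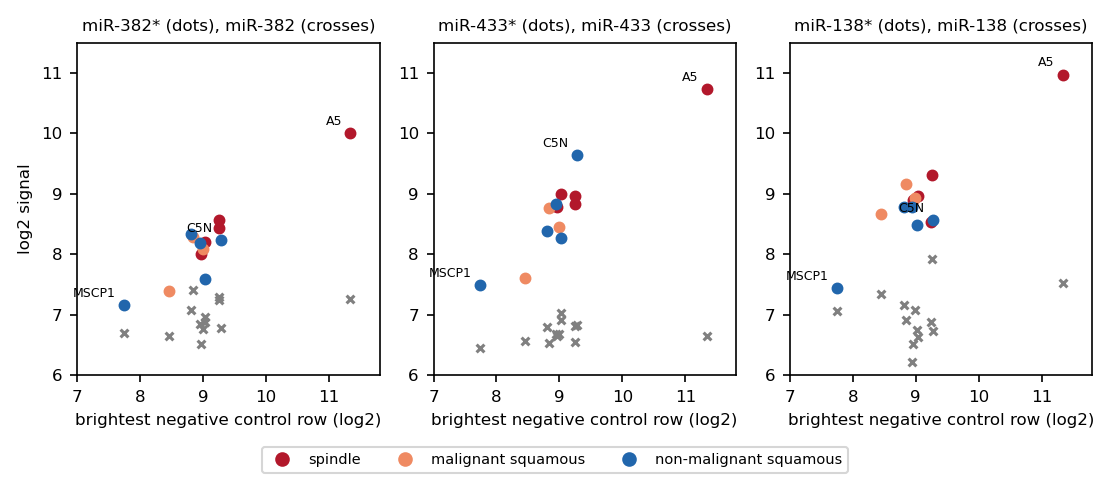
Log2 signal of miR-382*, miR-433* and miR-138* (dots, coloured by group) and of their plain rows (crosses) against the log2 signal of the brightest negative control row, 1 point per line. The stars are highest in A5, where the control stands at 11.34, and the plain rows stay low across the axis.

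The sequences printed above show that miR-138* and miR-382* both hold ACAACAC, outside the seed. The run was taken from these 2 stars, so a search of 1679 mature mouse sequences had to find both. It found no other holder (2 sequences, 0.119%), and the reverse complement GUGUUGU in 3, among them the guide strand of miR-138. Runs of 7 or more shared bases occurred in 118 of 4278 pairs of star sequences (2.76%). miR-433* shared at most 5 bases with either. The run was looked for after the values had been seen. The median GC content, also looked at after the values had been seen, was 50% in the 26 sequences above the controls in at least 3 lines and 50% in the 46 above in none.

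Several more star rows were above the controls in many more lines than their plain row. miR-872* was in 12 lines and miR-872 in 1. miR-300*, again of Dlk1-Dio3, was in 9 lines and miR-300 in none, with the highest levels in A5 (9.50) among spindle lines, B9 (9.09) and P6 (9.07). miR-294*, from a cluster of embryonic stem cells, was in 7 lines and miR-294 in none, and its levels, 6.92 to 8.01, were close to the threshold throughout. miR-485* was in 4 lines and miR-485 in none. Star and plain rows have different probes, so only their standing against the controls was compared, not their brightness.

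Taking all lines together, the star row and its plain row were scored in 1404 combinations of 108 pairs and 13 lines. Both were above the controls in 117, the star alone in 105, the plain row alone in 496 and neither in 686. A star row was above in 19.1% of the combinations where its plain row was above and in 13.3% of those where it was not. There were 15 star rows above in more lines than their plain row, 21 in as many and 72 in fewer. Of 39 pairs whose plain row was above in at least 10 lines, 16 had a star row above in none. No test was run on these counts.

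For 19 pairs both rows were above the controls in at least 3 lines, and their levels were compared across the 13 lines. These correlations are descriptions, since the rows of a pair share each array and 5 of the lines share tumours of origin. Pearson's r ran from -0.49 to 0.89 with a median of 0.31, and Spearman's rho had a median of 0.49. The median r of the same star rows with all plain rows was 0.13, and in 14 of 19 pairs the r with the star's own plain row was above its median over all. Among all 461 plain rows the own row ranked first in 1 pair and among the first 10 in 2, with a median rank of 135. Leaving out C5N, MSCP1 and A5 brought the median r to 0.56 and the median rank to 64. Centring each array on its bright plain rows brought the median r to 0.09 over 13 lines and 0.35 over 10. Centring takes the same amount off both rows of a pair on each array, so the centred r is not a neutral check. For miR-488* and miR-127*, whose pairs were above the controls in no line, it raised r from 0.32 and 0.56 to 0.997 and 0.990. An r of at least 0.5, a level chosen after the values were seen, was reached in 7 pairs over 13 lines and in 11 over 10 lines, with all 7 among the 11. It was reached in 5 pairs after centring and in 5 after quantile normalization. The plot of r by pair gives both.

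**Figure D4:**
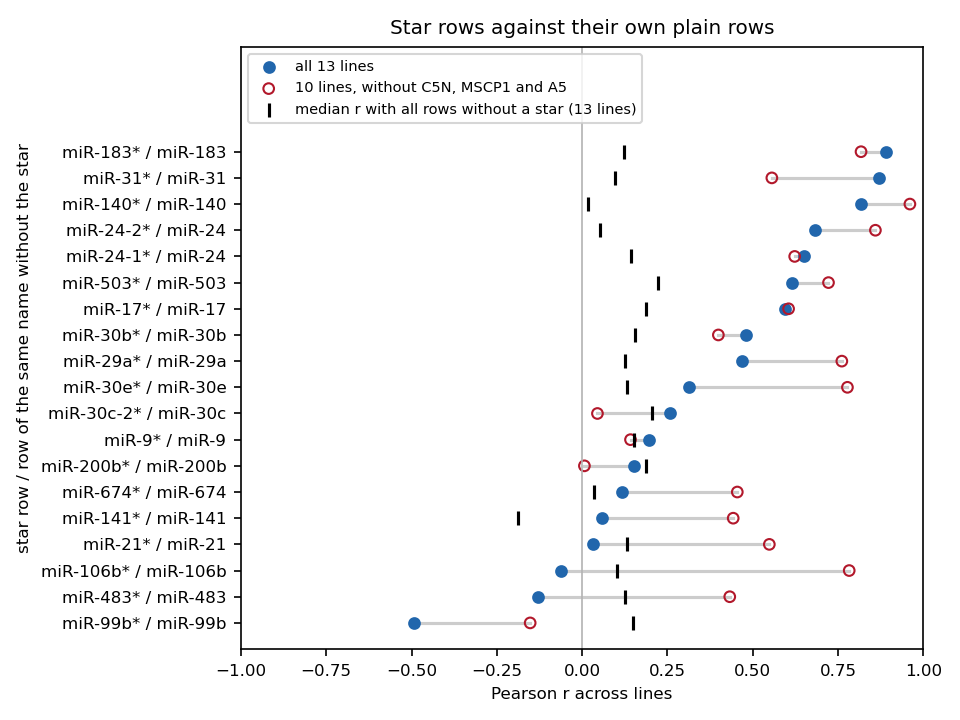
Pearson r across lines between each star row and its plain row for the 19 pairs above the controls in at least 3 lines, over 13 lines (filled) and over the 10 lines without C5N, MSCP1 and A5 (open), with a tick at the star row's median r with all plain rows. miR-183* and miR-31* lie at the top, with 0.89 and 0.87, and miR-106b* moves from -0.06 over 13 lines to 0.78 over 10. All r shown are without centring.

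Among the 19 pairs, miR-140* was the only star row whose own plain row ranked first among all plain rows. miR-140 is known for its role in cartilage, and its star strand is often the more abundant. miR-140* had 7.66, 7.59, 7.50, 7.79 and 9.17 in A5, D3, CARB, CARC and H11, against 7.93, 7.69 and 7.68 in B9, E4 and PDVC57, and 6.86, 9.62, 10.05, 6.86 and 7.37 in C5N, C50, NK, MSCP1 and P6. miR-140 had 8.15, 7.02, 6.86, 7.46 and 9.10 in the spindle lines, against 7.50, 7.06 and 7.32 in the malignant squamous lines, and 8.12, 8.88, 9.22, 6.88 and 7.37 in the non-malignant lines, in the same orders. H11, C50 and NK were the 3 highest lines of both rows. The r was 0.82 over 13 lines, 0.96 over 10 and 0.62 without H11 and NK, the 2 lines farthest from the median of miR-140.

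miR-183*, of the cluster with miR-96 and miR-182 that is active in sensory cells, had an r of 0.89 with miR-183 and of 0.82 over 10 lines. It was above the controls in D3 (8.07) and CARC (7.65), in B9 (8.05) and PDVC57 (7.88), and in C50 (7.98), NK (7.86) and P6 (8.16), and not in the other 6 lines. Those 7 lines were also above the controls for miR-183, which was in 9 lines. miR-31* had an r of 0.87 with miR-31, and of 0.56 over the 10 lines, where miR-31 ranked 113 of 461. miR-24-2* and miR-24-1* had r of 0.68 and 0.65 with the one plain row of miR-24, and 0.86 and 0.62 over 10 lines. With each array centred on its bright plain rows the r was 0.09 for miR-24-2* and -0.09 for miR-24-1*, and after quantile normalization it was 0.53 and 0.17. These 2 stars come from hairpins in different clusters, so their shared plain row sums both guide strands. The other pairs with an r of at least 0.5 were miR-503* (0.61) and miR-17* (0.60). The r of miR-503* was 0.70 after centring and 0.55 after quantile normalization, and that of miR-17* 0.07 and -0.15. For miR-183*, miR-31* and miR-140* it was 0.55, 0.68 and 0.82 after centring, and 0.85, 0.82 and 0.67 after quantile normalization. Over the 10 lines, centring gave 0.41, 0.11 and 0.96 for these 3. For miR-24-2* and miR-24-1* it gave 0.69 and 0.39 over those lines, and for miR-503* and miR-17* 0.60 and -0.44.

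**Figure D5:**
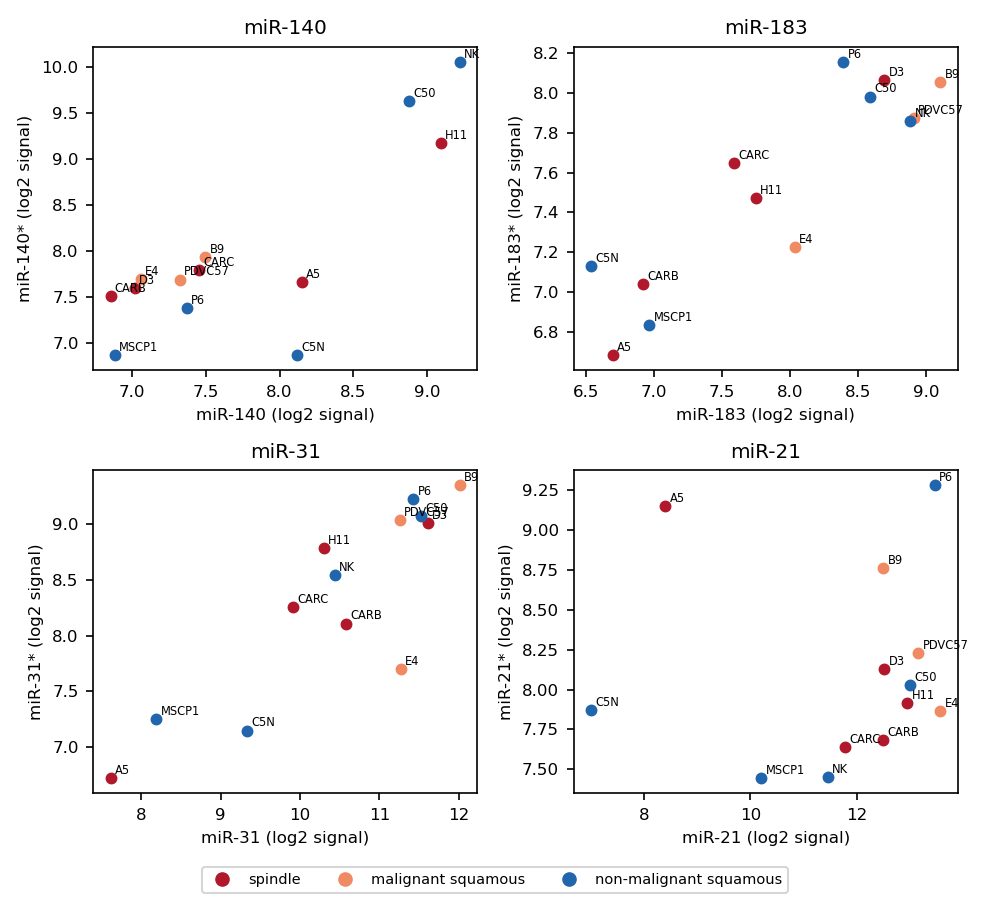
Log2 signal of the star row (vertical) against its plain row (horizontal) for miR-140, miR-183, miR-31 and miR-21, 1 point per line, coloured by group. Star and plain rows climb together in the first 3 panels; in the panel of miR-21, A5 and C5N lie far to the left of the other lines, while miR-21* reads 9.15 and 7.87 there.

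Some star rows did not follow their plain rows. miR-99b*, from a cluster with let-7e and miR-125a, had an r of -0.49 with miR-99b, and -0.15 over 10 lines: it was highest in C5N (9.02) and A5 (8.78), where miR-99b was at 6.76 and 6.94. miR-21* had an r of 0.03, and 0.55 over 10 lines. miR-21 stood at 8.40 in A5 and 7.01 in C5N, against 10.21 to 13.57 in the other 11 lines, while miR-21* had 9.15 and 7.87 in those 2 lines. miR-106b*, of the cluster with miR-93 and miR-25, had -0.06 over 13 lines and 0.78 over 10. miR-483*, from an intron of Igf2, had -0.13 and 0.43, and miR-141*, of the epithelial miR-200 family, had 0.06 and 0.44. In all 5, the r over 10 lines was the higher. Centring over those 10 lines gave 0.11 for miR-99b*, 0.56 for miR-21* and 0.02 for miR-106b*. It gave -0.0045 for miR-483* and 0.35 for miR-141*. Quantile normalization over 13 lines gave -0.72, -0.15, -0.36, -0.69 and 0.33 in this order.

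In the miR-200 family, which keeps epithelial cells from turning mesenchymal, miR-200b* was above the controls in 5 lines and miR-200b in 6. miR-200b* read 8.11 in A5 and 9.07 in D3 among spindle lines, and 8.65 in B9, 7.91 in PDVC57 and 7.98 in NK. miR-200b was above the controls in no spindle line, at 6.77 in A5 and 6.95 in D3, and its highest lines, C50 (10.87), NK (10.21) and P6 (10.19), held miR-200b* at 7.48, 7.98 and 7.46. The r of the pair was 0.15, and 0.01 over 10 lines. miR-141* was above in E4 (7.85), C5N (7.72) and MSCP1 (8.63), where the only other star row above was miR-503*. A5, D3 and B9, the 3 clonally related lines, were the 3 highest for miR-200b*.

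Over the family lists, 30 of 60 star rows (50%) were above the controls in at least 1 line and 18 (30%) in at least 3, beside 49.5% and 24.8% of all 109. Of the 8 star rows of the miR-17-92 cluster and its paralogues, 6 were above the controls in at least 1 line and 2, miR-106b* and miR-17*, in at least 3. Of 7 let-7 stars, 3 were in at least 1 line and none in 3. Of 5 miR-30 stars, 4 were in at least 1 and 3 in at least 3: miR-30c-2*, miR-30e* and miR-30b*. All 4 stars of the miR-23, miR-27 and miR-24 group were in at least 1 line and both miR-24 stars in at least 3. Of 11 Dlk1-Dio3 stars on the list, 4 were in at least 1 line and 3 in at least 3 (miR-433*, miR-300* and miR-485*). miR-382* and miR-299*, which lie in the same region but are not on the list, were above in 10 lines and in 1. Of 4 stars of the miR-200 family 3 were in at least 1 line and 2 in at least 3, and of 3 stars of microRNAs known from tumours 2, miR-31* and miR-21*, were in at least 3. Of 5 stars of the miR-15 and miR-16 family, miR-503* alone was above in any line. Single members of other lists were miR-29a* of 3 miR-29 stars and miR-99b* of 4 stars of the miR-99, miR-100 and miR-125 group, and neither of 2 miR-26 and miR-101 stars nor miR-34 was above in any line. Of 3 stars of other cell types, miR-9*, a neural microRNA, was above in 4 lines, A5 (8.99), D3 (7.68), H11 (7.84) and B9 (10.14), 3 of them related lines, and miR-9 in 3 spindle lines.

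The 23 star rows above the controls in exactly 1 line comprised 11 in C5N, 5 in E4, 4 in CARB and 1 each in A5, D3 and H11. The widest gap was in let-7g*, whose guide is a tumour suppressor of the let-7 family: C5N had 13.37 and the next line, E4, 7.44, with 6.11 to 6.77 in the other 11. miR-19a*, of the miR-17-92 cluster, was likewise at 14.43 in C5N, with E4 at 8.05 the only other line above the controls. The plain let-7g row used here, the brighter of 2, stood at 7.41 in C5N, 7.28 in A5 and 7.36 in MSCP1. It was at 10.04 or more in the 10 lines above the controls, while the other let-7g row was above in 2 lines. let-7g* read 6.58 in A5 and 6.39 in MSCP1. miR-744* had 8.88 in C5N and 6.59 in E4, the next line. miR-299* had 8.54 in C5N and 7.12 in C50, miR-200a* 9.02 in E4 and 7.05 in A5, and miR-148a* 8.02 in CARB and 6.68 in C5N. 13 of the 27 star rows above in C5N were above in fewer than 3 lines. These counts are not set beside a share of plain rows, so they do not show a trait of star rows. In C5N, 24.8% of star rows and 21.5% of plain rows were above the controls. The plain rows of highest r with let-7g* and miR-19a* were miR-671-3p (0.988) and miR-590-3p (0.987), each above in 2 lines.

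No star row passed limma's moderated test between the groups. The test, with Benjamini-Hochberg adjustment over the 576 mouse rows, called 0 of 109 star rows in all 3 comparisons, against 0.0% of all rows called in each. At an unadjusted p under 0.05, 2 star rows were higher and 1 lower in spindle than in non-malignant lines, against 5.56% of all mouse rows higher and 2.95% lower. The star rows' shares were 1.83% and 0.917%. In spindle against malignant squamous lines they numbered 0 and 1 (1.39% and 1.56% of all rows), and in malignant squamous against non-malignant lines 1 and 3 (2.6% and 1.91%). The smallest adjusted p of a star row was 0.396, 0.990 and 0.844 in the 3 comparisons by limma. The median difference over the star rows was -0.0065, 0.02 and -0.0027, beside 0.03, -0.0081 and 0.03 over all mouse rows.

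By unadjusted p, the star rows of spindle lines that stood out most were miR-145* and miR-463*. miR-145*, from a mesenchymal microRNA, averaged 7.12 ± 0.40 in spindle lines and 6.61 ± 0.23 in non-malignant lines (SD, n = 5 each; difference 0.50, SE 0.19, limma's adjusted p = 0.477), and was above the controls in A5 alone, at 7.68. miR-463* averaged 6.37 ± 0.08 and 6.71 ± 0.29 (difference -0.34, SE 0.11, limma's adjusted p = 0.396) and was above the controls in no line. miR-93*, of the miR-106b cluster, averaged 6.65 ± 0.09 in spindle lines and 6.96 ± 0.15 in malignant squamous lines (SD, n = 5 and 3; difference -0.31, SE 0.11, limma's adjusted p = 0.990). Apart from miR-145*, none of the star rows with an unadjusted p under 0.05 was above the controls in any line: miR-425* in the first comparison, miR-93* in the second, and miR-93*, miR-470*, miR-463* and miR-181a-1* in the third. The other rows named by the rule had unadjusted p-values of 0.0516 to 0.147 and adjusted p-values of 0.568 to 0.990 in limma. Among them, miR-433* averaged 9.26 ± 0.82 in spindle lines and 8.28 ± 0.59 in malignant squamous lines (difference 0.98, SE 0.59, limma's adjusted p = 0.990). Without A5 that difference was 0.61, and without E4 it was 0.65. Without C5N, MSCP1 and A5, the differences between spindle and non-malignant lines were 0.29 for miR-145* and -0.22 for miR-463*.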

How the data were processed

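Deposited log2 signals were used as they stand, and that they are log2 values was taken from their range of 5.93 to 15.21. Total RNA was labelled with Cy3 by an Exiqon kit, per the labels' protocols. How arrays were scanned, background-corrected and normalized is not given in the sources used here. Array medians were 6.71 to 6.86, and no value was missing. The members and lists were chosen with earlier results of these data known. Star arm names were matched to current names by naming history, which agreed in all 17 rows that could be checked. The plain row is that of the same name without the star (99 rows) or without its copy number (9 rows), and the brighter median of several. In 6 pairs 2 plain rows had the same name. Groups were tested with limma 3.58.1 (R 4.3.3; eBayes, trend by mean signal) on 13 lines, A5 averaged, with Benjamini-Hochberg adjustment over 576 rows, on a script tested on simulated data. Single values over lines used exact permutation tests (SciPy 1.17.1). Named rows were those above in at least 10 lines, the 3 smallest p per direction, the 5 highest and lowest r, up to 5 seen in 1 line, up to 6 with at least 3 more lines than the plain row, and up to 3 members of each list. Alternatives were other margins and controls, quantile normalization, single A5 arrays, left-out lines, and the tumour of origin as a random block (consensus correlation 0.2138). Counting rows above the controls in at least 3 lines and pairs with an r of at least 0.5 as summaries was decided after the values had been seen. The number of arrays limits the precision.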

Additional observations from a re-analysis of the deposited data

Results flagged for a closer look

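Of 88 groups of lines of named star rows that were examined, 15 held a line far from the rest. A chance rate of about 1 in 20 does not apply to this count. Some rows, such as let-7g*, miR-744*, miR-299* and miR-148a*, were named because they stood above the controls in 1 line only. They fell on C5N in 5 cases and on A5 in 4, 2 of the arrays that stand apart. In spindle lines, H11 had miR-140* at 9.17, against 7.79 in the next line. A5 had miR-141* at 7.53, miR-382* at 10.00, miR-433* at 10.73 and miR-99b* at 8.78. CARB had miR-148a* at 8.02 and, as the lowest line, miR-18a* at 6.31, and D3 had the lowest miR-470*, 6.23. In non-malignant lines, C5N had let-7g* at 13.37, miR-18a* at 7.88, miR-20b* at 7.54, miR-299* at 8.54 and miR-744* at 8.88. MSCP1 had the lowest miR-138*, 7.44, and NK the highest miR-145*, 7.01.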

How the results depend on the processing

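Star rows above the controls in at least 3 lines numbered 9 at a margin of 2 log2 units, 74 when a row had to exceed every control but the brightest, and 6 when it had to exceed every control, against 27. The difference in the number of rows between spindle and non-malignant lines turned to -12.6 and -1.6 under those last 2 rules and -1.6 after quantile normalization, and was -0.15 to 6.1 with lines left out in turn. Spindle minus malignant squamous turned to 0.4 at a margin of 2, and malignant squamous minus non-malignant to -0.933 after quantile normalization. None passed its test. Pairs with an r of at least 0.5 numbered 11 of 19 without C5N, MSCP1 and A5, and 4 of 8 where both rows were above in at least 6 lines, against 7 of 19, and 5 of 19 both after centring and after quantile normalization; with each line left out they numbered 6 to 11, the highest without C5N. The difference in miR-20b* between spindle and malignant squamous lines was -1.05 to 0.0070 with lines left out, the highest without E4. The cause was not tested. limma called 0 star rows in each of the 3 comparisons under all of its alternatives, and the share of star rows stayed below that of plain rows under all of them. Leaving out lines for the detection counts and shares, and single A5 arrays for the shares, were added after seeing the data. The tumours of origin that link spindle and squamous lines entered limma as a random block, with 0 star rows called. No analysis paired by replicate number was made, because the labels number the A5 arrays alone.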
